A study of Homo sapiens with 4 samples.

Results

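Coagulation and fibrinolysis genes comprised 37 genes that encode the fibrinogen chains, the clotting factors, their inhibitors and the proteins of the kinin and plasmin systems. They were taken by gene symbol, and all 37 were found among the 25343 symbols listed for each library. The data were 4 RNA-seq libraries from human hepatocellular carcinoma lines, with 1 library in each group: Huh7 with SCD knockdown, Huh7 with vector control, PLC/PRF/5 with SCD knockdown and PLC/PRF/5 with vector control. The knockdown cells carried 1 short hairpin RNA (shSCD1#13) against SCD1, gene symbol SCD, an enzyme that puts the first double bond into saturated fatty acids. The control cells carried a non-target hairpin (NTC), and all 4 groups were transduced with lentivirus and selected with puromycin. With 1 hairpin against the target, loss of SCD and other effects of that hairpin cannot be told apart. Huh7 is a tumour line that keeps many secreted liver proteins, and PLC/PRF/5 is a tumour line with integrated hepatitis B virus DNA. Values are in TPM, a level per transcript length scaled to a fixed library total, and the sequencing depth behind them is unknown.

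Clotting runs through serine protease zymogens that circulate in plasma and are mostly made by hepatocytes. Tissue factor with factor VII, or the contact factors XII and XI, lead to factor X and thrombin, and thrombin turns fibrinogen into fibrin. Antithrombin, heparin cofactor II, the protein C system and tissue factor pathway inhibitor restrain it, and plasmin, formed from plasminogen, dissolves the clot. Hepatocytes secrete most of these proteins, whereas tissue factor, thrombomodulin, the plasminogen activators and the urokinase receptor are among those made largely by other cells.

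SCD was at 137 TPM in the Huh7 knockdown library and 1755 TPM in the Huh7 control, and at 178 TPM in the PLC/PRF/5 knockdown library and 1111 TPM in the PLC/PRF/5 control. Both lines thus had less SCD transcript with knockdown, as their labels state, with log2 differences of -3.67 in Huh7 and -2.64 in PLC/PRF/5. All 8 hepatocyte markers (ALB, AFP, APOA1, APOB, TTR, SERPINA1, TF and AHSG) reached 1 TPM in both Huh7 libraries and 7 did in both PLC/PRF/5 libraries, where TTR was at 0.16 TPM with knockdown and 0.41 TPM in the control. Their summed level was 26783 TPM in the Huh7 knockdown library and 29825 TPM in its control, and 3038 TPM in the PLC/PRF/5 knockdown library and 4360 TPM in its control. The summed level of 4 biliary markers, of which KRT19 was the highest in Huh7 and SOX9 in PLC/PRF/5, was 827 TPM with knockdown and 495 TPM in the control in Huh7, and 47.9 TPM with knockdown and 40.4 TPM in the control in PLC/PRF/5. In Huh7, KRT19 and EPCAM were at least 2-fold higher with knockdown, while SOX9, of the same list, was at 132 TPM with knockdown and 171 TPM in the control. Most hepatocyte markers of Huh7 (AFP, APOA1, APOB, TTR, SERPINA1 and TF) were lower with knockdown, with AFP at 10302 TPM with knockdown and 15421 TPM in the control. ALB went the other way, at 10479 TPM with knockdown and 6498 TPM in the control. AHSG was near its control, at 551 TPM with knockdown and 550 TPM in the control. In PLC/PRF/5, all 8 hepatocyte markers were lower with knockdown, and AFP, TF and AHSG were at least 2-fold lower. Of 5 endothelial markers, KDR and TEK were listed at 0 in every library and the sum stayed between 1.5 and 3.40 TPM. Leukocyte markers were all under 1 TPM, and mesenchymal markers summed to between 1.69 and 14.2 TPM. The part that these marker differences have in the values below was not tested.

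The 37 genes together held 0.686% of the Huh7 knockdown library and 0.626% of its control, and 0.440% of the PLC/PRF/5 knockdown library and 0.627% of its control. The summed levels of the controls were nearly equal, at 6263 TPM in Huh7 and 6266 TPM in PLC/PRF/5, but the highest genes differed. A2M, which encodes the broad protease inhibitor alpha-2-macroglobulin, was the highest gene in both Huh7 libraries and FGA in both PLC/PRF/5 libraries. Without A2M and the 3 fibrinogen chain genes, the remaining genes summed to 2935 TPM in the Huh7 knockdown library and 1952 TPM in its control, and to 687 TPM in the PLC/PRF/5 knockdown library and 787 TPM in its control. F9, the gene of clotting factor IX, was listed at 0 in every library, THBD was listed at 0 in both Huh7 libraries and PLG in both PLC/PRF/5 libraries.

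**Figure D1:**
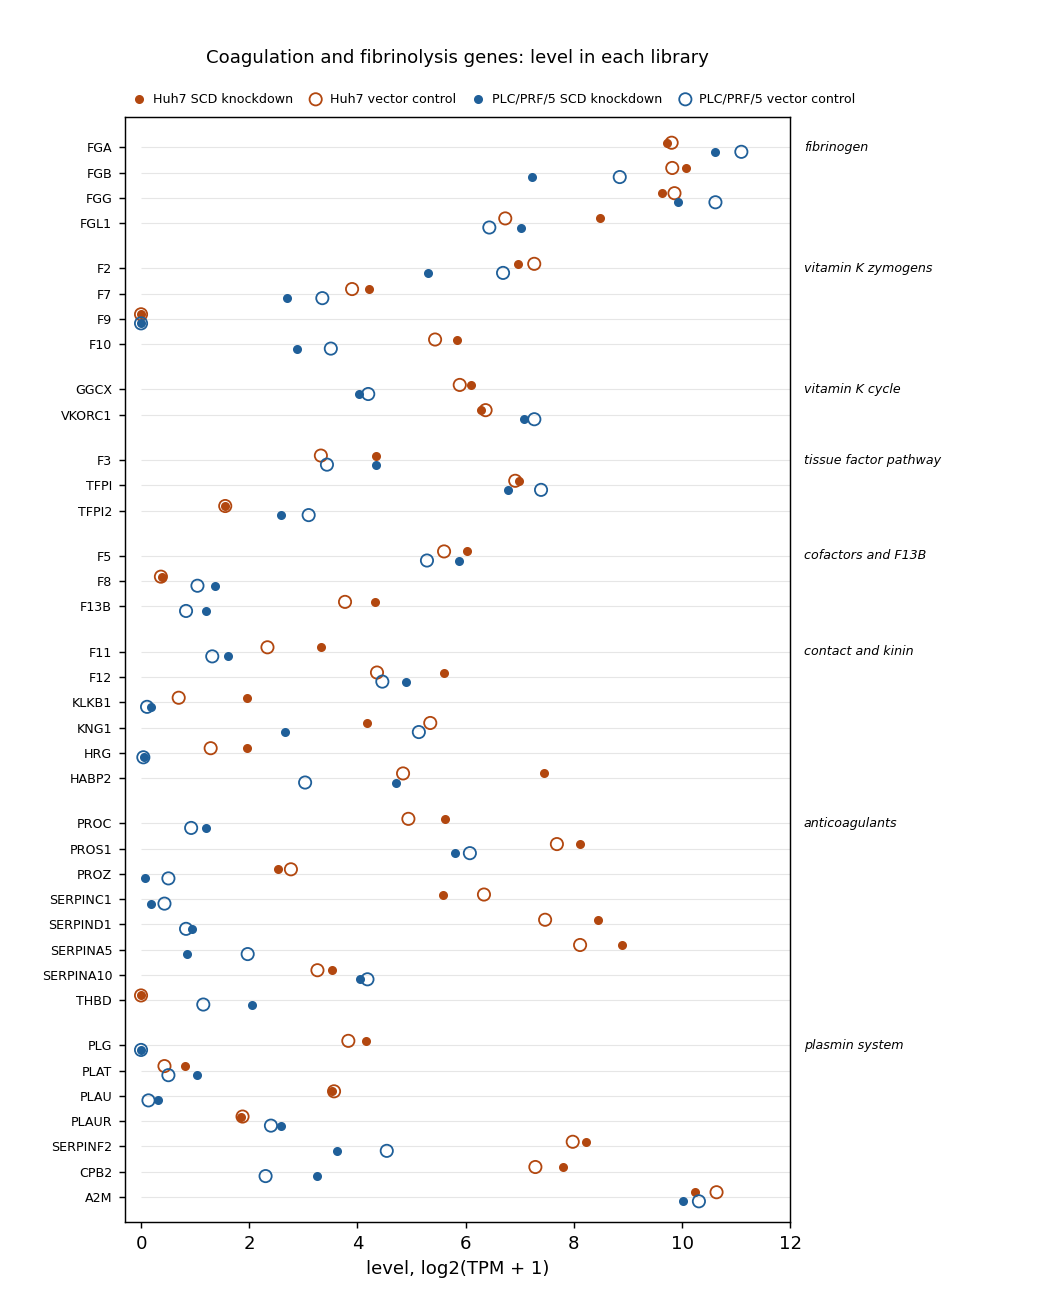
Level of each of the 37 genes in the 4 libraries, as log2(TPM + 1), grouped by role; filled points are SCD knockdown libraries and open rings vector control libraries. FGA, FGG and A2M lie at the right in all 4 libraries, and most anticoagulant and plasmin system genes lie further right in Huh7 than in PLC/PRF/5.

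Differences within a line were expressed as log2((knockdown TPM + 1)/(control TPM + 1)), which understates the change of low genes, and rest on single libraries without replicates, so no test was possible within a line. Genes with at least 1 TPM in at least 1 library of a pair were considered, and a difference of at least 2-fold on that scale was counted as a matter of size. In Huh7, 33 of the 37 genes were considered, of which 5 were at least 2-fold higher with knockdown, where 3.1% of all 13485 genes considered were, and 1 was at least 2-fold lower, where 1.54% were. In PLC/PRF/5, 29 were considered, of which 1 was at least 2-fold higher, where 1.72% of all 13057 genes considered were, and 4 were at least 2-fold lower, where 1.11% were. KLKB1 in Huh7 and F13B, PROC and PLAT in PLC/PRF/5 entered only through the knockdown library, and SERPINA5 in PLC/PRF/5 only through the control. The median difference was 0.31 over the genes considered in Huh7, against 0.08 over all genes, and -0.17 in PLC/PRF/5, against 0.10 over all genes. When each library was rescaled by its median ratio to the others, the median of all genes became -0.015 in Huh7 and -0.035 in PLC/PRF/5, while that of the coagulation and fibrinolysis genes became 0.21 in Huh7 and -0.32 in PLC/PRF/5. The share of 2-fold genes on the higher side, over all genes, was 40.7% in PLC/PRF/5 after that scaling and 60.8% before it. With a minimum of 5 TPM the median of the coagulation and fibrinolysis genes in PLC/PRF/5 was -0.30, against 0.09 over all genes.

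In both lines HABP2 was at least 2-fold higher with knockdown and KNG1 at least 2-fold lower, sizes that 0.431% and 0.216% of the 12064 genes considered in both lines reached in the same direction. Of the 26 coagulation and fibrinolysis genes considered in both lines, 9 were higher with knockdown in both (34.6%) and 7 lower in both (26.9%), against 46.5% and 22.4% of all genes considered in both. Another 9 were higher with knockdown in Huh7 but lower in PLC/PRF/5 (34.6%), against 14.1% of all genes, and 1, PLAUR, was the reverse (3.85%), against 16.9%. The difference was more positive in Huh7 than in PLC/PRF/5 for 22 of these 26 genes (84.6%), against 45.3% of all genes considered in both lines. Without a filter on level it was so for 26 of 34 genes (76.5%), against 45.5%. Whether the knockdown difference itself differed between the lines cannot be tested with 1 library per group.

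**Figure D2:**
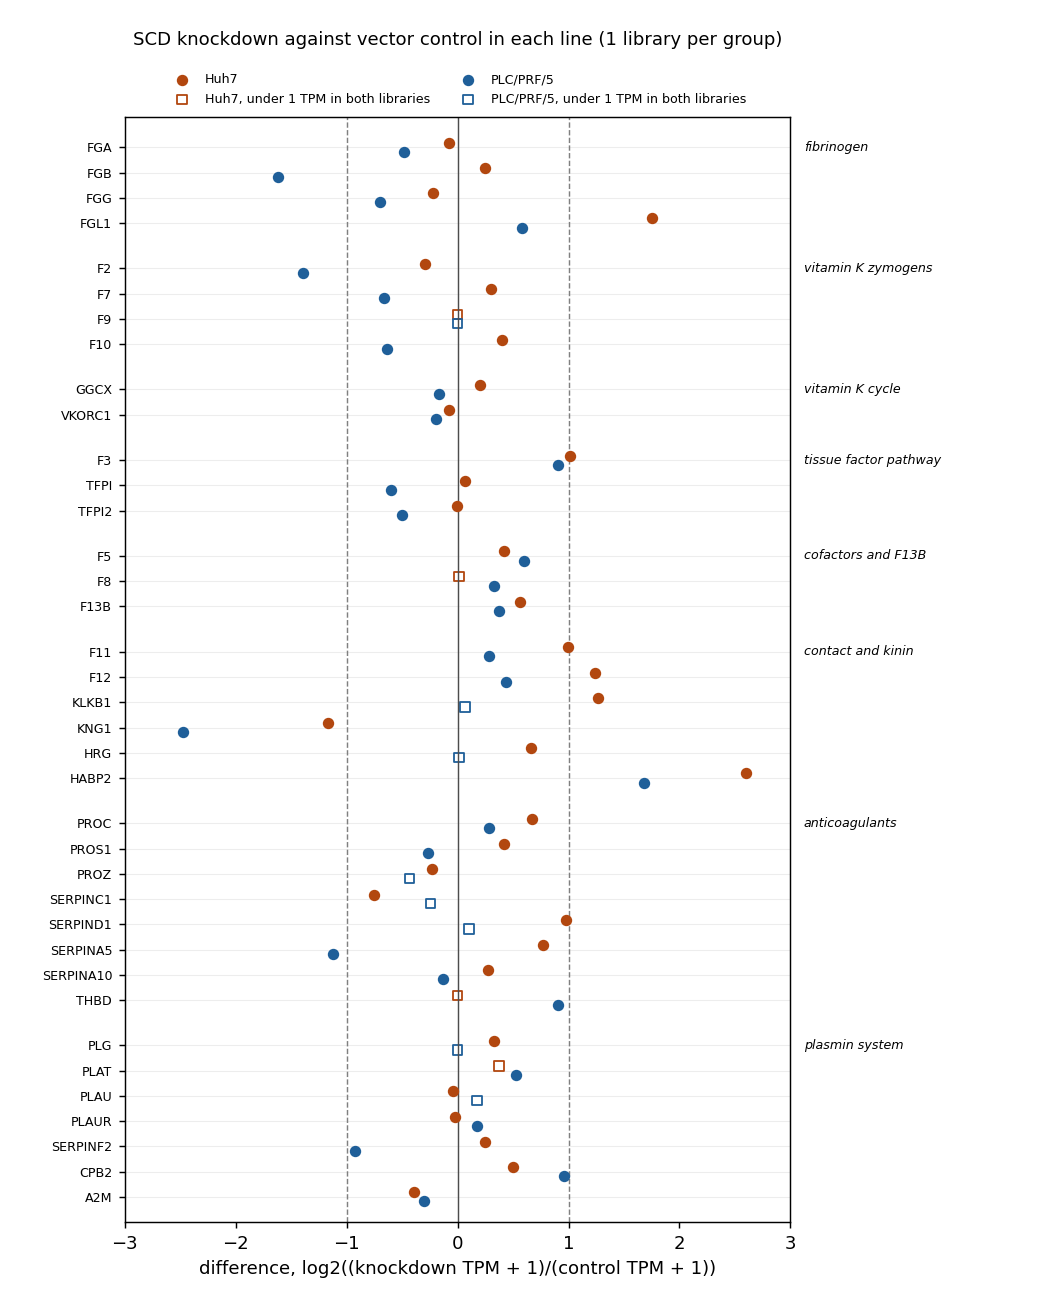
Knockdown against control for each gene, as log2((knockdown TPM + 1)/(control TPM + 1)), in Huh7 and in PLC/PRF/5, grouped by role; dashed lines mark 2-fold and open squares are genes under 1 TPM in both libraries of a pair. HABP2 lies beyond the upper line and KNG1 beyond the lower line in both lines, and the PLC/PRF/5 points of FGB, F2 and SERPINA5 lie beyond the lower line.

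The difference common to both lines was tested with limma on log2(TPM + 1), with the cell line as a term and 1 residual degree of freedom, over 13813 genes with at least 1 TPM in at least 2 libraries. Of the 37 genes, 34 were in the fit, and none passed an adjusted p of 0.05 in either direction; across all genes 0% passed as higher and 0.00724% as lower. At an unadjusted p under 0.05 in limma, 6 were higher with knockdown (FGL1, F3, F5, F12, HABP2 and CPB2), where 12.7% of all genes were, and 4 were lower (FGG, F2, KNG1 and A2M), where 5.24% were. The lowest adjusted p among the 34 was that of HABP2 (adjusted p = 0.129). SCD, the targeted gene, did not pass in this limma fit either (adjusted p = 0.128). The labels name no separate experiments. These p-values reflect the spread between the lines, moderated with variance that limma borrows from other genes, and no spread between replicates.

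Fibrinogen is a hexamer built from pairs of the Aα, Bβ and γ chains, encoded by FGA, FGB and FGG, which stand next to each other on chromosome 4. FGB was at 1073 TPM in the Huh7 knockdown library and 901 TPM in the Huh7 control, against 149 TPM in the PLC/PRF/5 knockdown library and 459 TPM in the PLC/PRF/5 control. Its level was thus 3.09-fold lower with knockdown in PLC/PRF/5 (log2 difference -1.62) and slightly higher in Huh7 (0.25). FGA was at 847 TPM with knockdown and 894 TPM in the control in Huh7, and at 1563 TPM with knockdown and 2184 TPM in the control in PLC/PRF/5. FGG was at 793 TPM with knockdown and 927 TPM in the control in Huh7, and at 967 TPM with knockdown and 1567 TPM in the control in PLC/PRF/5. Both were lower with knockdown in each line, by less than 2-fold. In bulk libraries such as these, fewer cells that make a transcript and less of it per cell cannot be told apart.

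The balance of the 3 chains differed between the lines. FGB made up 39.5% of their summed TPM in the Huh7 knockdown library and 33.1% in the Huh7 control, close to equal shares, but 5.55% in the PLC/PRF/5 knockdown library and 10.9% in the PLC/PRF/5 control. The ratio of FGB to FGA in TPM was 0.0950 with knockdown and 0.210 in the control in PLC/PRF/5, and 1.27 with knockdown and 1.01 in the control in Huh7. FGG to FGA was closer between the lines, at 0.619 with knockdown and 0.717 in the control in PLC/PRF/5, and 0.936 with knockdown and 1.04 in the control in Huh7. FGB was therefore the least abundant chain transcript in both PLC/PRF/5 libraries and in neither Huh7 library. The summed level of the chains was 2713 TPM with knockdown and 2722 TPM in the control in Huh7, and 2678 TPM with knockdown and 4210 TPM in the control in PLC/PRF/5.

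**Figure D3:**
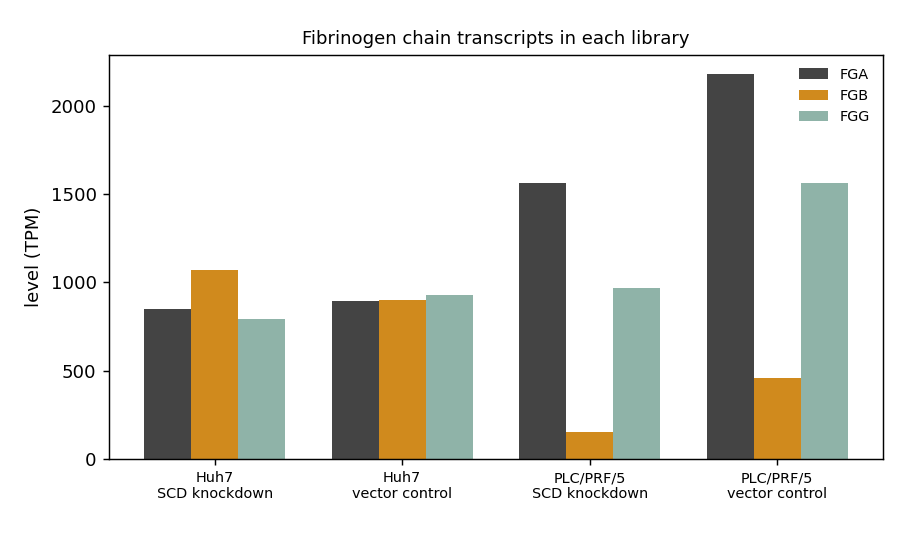
TPM of FGA, FGB and FGG in each library, 1 bar per library with no error bars since each group is 1 library. The FGB bar is at 149 TPM in the PLC/PRF/5 knockdown library and 459 TPM in its control, and is far below FGA and FGG in both.

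FGL1 encodes fibrinogen-like protein 1 (hepassocin), a hepatocyte-secreted relative of the fibrinogen chains that does not form clots. It was at 358 TPM in the Huh7 knockdown library and 105 TPM in the Huh7 control, and at 129 TPM in the PLC/PRF/5 knockdown library and 85.6 TPM in the PLC/PRF/5 control. FGL1 was higher with knockdown in both lines, 3.40-fold in Huh7 and 1.5-fold in PLC/PRF/5, opposite to FGA and FGG. The mean log2 difference was 1.17 with a standard error of 0.28, which did not pass in limma (adjusted p = 0.190).

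The promoters of the fibrinogen chains, of KNG1 and of HABP2 are shown because these genes carried the largest differences or, for the chains, differed among themselves. Each line holds the 250 bases before the transcription start in RefSeq on GRCh38.p14, 5′ to 3′ on the strand of the gene, with capitals for matches to the motifs named after them. FGB lies at chr4:154562730-154562979 on the + strand, FGA at chr4:154590743-154590992 and FGG at chr4:154612657-154612906, both on the - strand. KNG1 lies at chr3:186717109-186717358 and HABP2 at chr10:113550581-113550830, both on the + strand. For FGB and HABP2, which have 2 windows each in the table, the most upstream is given.
FGB: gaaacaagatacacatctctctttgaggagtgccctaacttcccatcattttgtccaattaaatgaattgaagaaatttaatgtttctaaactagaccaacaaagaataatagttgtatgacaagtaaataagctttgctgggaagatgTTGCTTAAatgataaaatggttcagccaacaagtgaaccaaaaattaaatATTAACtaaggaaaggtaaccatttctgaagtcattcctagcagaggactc
FGA: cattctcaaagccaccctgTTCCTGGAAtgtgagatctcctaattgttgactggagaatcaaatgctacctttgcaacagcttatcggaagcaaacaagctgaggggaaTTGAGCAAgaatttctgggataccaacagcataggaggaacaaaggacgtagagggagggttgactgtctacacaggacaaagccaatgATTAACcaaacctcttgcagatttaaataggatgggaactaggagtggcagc
FGG: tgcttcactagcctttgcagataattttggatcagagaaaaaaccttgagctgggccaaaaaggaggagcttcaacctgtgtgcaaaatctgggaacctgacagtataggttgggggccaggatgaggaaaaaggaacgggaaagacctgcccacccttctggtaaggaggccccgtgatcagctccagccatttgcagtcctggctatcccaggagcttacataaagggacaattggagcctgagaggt
KNG1: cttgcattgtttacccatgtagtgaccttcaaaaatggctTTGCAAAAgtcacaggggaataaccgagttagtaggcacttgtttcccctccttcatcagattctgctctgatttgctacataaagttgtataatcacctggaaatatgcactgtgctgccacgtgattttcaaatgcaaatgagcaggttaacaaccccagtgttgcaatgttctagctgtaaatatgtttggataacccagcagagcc
HABP2: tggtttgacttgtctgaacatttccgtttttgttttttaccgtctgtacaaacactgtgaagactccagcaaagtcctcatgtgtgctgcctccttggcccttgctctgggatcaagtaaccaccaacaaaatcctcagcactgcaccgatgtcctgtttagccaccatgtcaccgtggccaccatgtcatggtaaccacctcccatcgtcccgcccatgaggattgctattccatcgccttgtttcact

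Motifs were searched on both strands of windows that run from 250 bases before the start to 50 bases after it, and the windows of 31 of the 37 genes were found. The letters were GTTAAT for HNF1, CAAAGTCCA and CAAAGTTCA for HNF4, TTGCNNAA for C/EBP, TGANTCA for AP-1 and TTCNNNGAA for STAT factors. GTTAAT is only part of a full HNF1 site and is called the HNF1 core site here. In FGB and FGA, an HNF1 core site on the opposite strand lay at almost the same place, from -51 to -46 in FGB and from -52 to -47 in FGA, and both also held a C/EBP match. FGG held none of these letters in the window. KNG1 held a C/EBP match from -210 to -203, and in this window of HABP2 an HNF1 core site and a STAT match lay after the start and are not printed. No matches to different motifs overlapped in these 5 windows. Among the 31 genes, 9 held the HNF1 core site (29%), against 8.27% of the 27305 genes in the table, and 10 the C/EBP letters (32.3%), against 12.7%. STAT letters were held by 9 genes (29%), against 9.38%, and AP-1 letters by 4 (12.9%), against 9.37%. The AP-1 letters lay in F3, TFPI2, HABP2 and PLAUR. For HABP2, the AP-1 and C/EBP letters counted here lay in its other window, which is not printed. One HNF4 form was held by F10 and PROZ (6.45%, against 0.472%) and the other by SERPIND1 (3.23%, against 0.366%). These are matches of letters and not measured binding.

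The vitamin K-dependent zymogens F2, F7 and F10 were lower with knockdown in PLC/PRF/5, and F2 alone of them was lower in Huh7. F2, which encodes prothrombin, was at 38.4 TPM in the PLC/PRF/5 knockdown library and 102 TPM in its control, 2.67-fold lower (log2 difference -1.39). In Huh7 it was at 125 TPM with knockdown and 153 TPM in the control. F10, the gene of the zymogen that factor VII activates, was at 6.33 TPM with knockdown and 10.4 TPM in the control in PLC/PRF/5, and at 56.1 TPM with knockdown and 42.2 TPM in the control in Huh7. F7, its neighbour on chromosome 13, was at 5.45 TPM with knockdown and 9.20 TPM in the control in PLC/PRF/5, and at 17.5 TPM with knockdown and 13.9 TPM in the control in Huh7. The ratio of F7 to F10 in TPM was therefore much the same in both arms, 0.861 with knockdown and 0.887 in the control in PLC/PRF/5, and 0.311 with knockdown and 0.330 in the control in Huh7.

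The zymogens need gamma-carboxylation, carried out by GGCX with vitamin K that VKORC1 regenerates. GGCX was at 67.2 TPM with knockdown and 58.3 TPM in the control in Huh7, and at 15.4 TPM with knockdown and 17.4 TPM in the control in PLC/PRF/5. VKORC1 was at 77.1 TPM with knockdown and 81.6 TPM in the control in Huh7, and at 134 TPM with knockdown and 153 TPM in the control in PLC/PRF/5. The log2 differences of GGCX were 0.20 in Huh7 and -0.17 in PLC/PRF/5, so both enzyme genes stayed close to their controls. VKORC1 shares 66.9% of the 31-base words of its longest GENCODE 29 transcript with other annotated genes, AC135050.2 among them, and its value is uncertain.

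F3 encodes tissue factor, the membrane receptor of factor VII that starts clotting, and TFPI its main inhibitor. F3 was at 19.3 TPM in the Huh7 knockdown library and 9.01 TPM in the Huh7 control, and at 19.3 TPM in the PLC/PRF/5 knockdown library and 9.82 TPM in the PLC/PRF/5 control. The lines thus had nearly the same level in each arm, with knockdown 2.14-fold higher in Huh7 and 1.96-fold higher in PLC/PRF/5. The mean log2 difference was 0.96 with a standard error of 0.15, higher in both lines, and did not pass in limma (adjusted p = 0.143). In Huh7 the size was under 2-fold when libraries were rescaled by median ratios (log2 difference 0.93) and with a pseudocount of 5 (0.79).

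TFPI was at 125 TPM with knockdown and 120 TPM in the control in Huh7, a log2 difference of 0.06 that became -0.03 with median-ratio scaling, and at 110 TPM with knockdown and 167 TPM in the control in PLC/PRF/5. The ratio of F3 to TFPI in TPM was 0.154 with knockdown and 0.0753 in the control in Huh7, and 0.176 with knockdown and 0.0588 in the control in PLC/PRF/5. TFPI thus exceeded F3 in every library, by less in the knockdown libraries. TFPI2, a related inhibitor of plasmin and other proteases deposited in the matrix, was at 1.93 TPM with knockdown and 1.94 TPM in the control in Huh7, and at 5.04 TPM with knockdown and 7.56 TPM in the control in PLC/PRF/5.

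F5, F8 and F13B encode the cofactors V and VIII and the carrier subunit of the fibrin-crosslinking factor XIII. F5 was at 63.8 TPM with knockdown and 47.5 TPM in the control in Huh7, and at 57.8 TPM with knockdown and 38.0 TPM in the control in PLC/PRF/5. It was higher with knockdown in both lines by less than 2-fold (log2 differences 0.42 and 0.59), and did not pass in limma (adjusted p = 0.177). F13B was at 19.1 TPM with knockdown and 12.6 TPM in the control in Huh7, and at 1.30 TPM with knockdown and 0.78 TPM in the control in PLC/PRF/5. F8, which in liver is made mostly by endothelial cells, was the lowest of the 3 in Huh7, at 0.30 TPM with knockdown and 0.29 TPM in the control, and stood at 1.58 TPM with knockdown and 1.06 TPM in the control in PLC/PRF/5.

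Genes of the contact and kinin system held the extreme differences in either direction. HABP2 encodes a plasma serine protease, also called factor VII-activating protease, that cleaves factor VII and pro-urokinase in vitro. It was at 173 TPM in the Huh7 knockdown library and 27.7 TPM in the Huh7 control, and at 25.1 TPM in the PLC/PRF/5 knockdown library and 7.18 TPM in the PLC/PRF/5 control. The knockdown libraries were 6.25-fold and 3.50-fold higher, with log2 differences of 2.60 and 1.68 and a mean of 2.14 with a standard error of 0.24. GENCODE 29 places exons of NRAP on the opposite strand over 10.0% of the exonic bases of HABP2, and NRAP was at 0.06 TPM or less in all libraries.

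KNG1 encodes kininogen, which carries prekallikrein and releases bradykinin. It was at 17.1 TPM in the Huh7 knockdown library and 39.6 TPM in the Huh7 control, and at 5.33 TPM in the PLC/PRF/5 knockdown library and 34.1 TPM in the PLC/PRF/5 control. Knockdown was 2.31-fold lower in Huh7 and 6.40-fold lower in PLC/PRF/5, with a mean log2 difference of -1.82 and a standard error of 0.33 (adjusted p = 0.157 in limma). HRG, its neighbour on chromosome 3, encodes histidine-rich glycoprotein, a heparin- and plasminogen-binding plasma protein. HRG did not share the direction of KNG1 in Huh7, and in PLC/PRF/5 it was too low for a direction to be read. HRG was at 2.87 TPM with knockdown and 1.44 TPM in the control in Huh7, and at 0.04 TPM with knockdown and 0.03 TPM in the control in PLC/PRF/5. Exons of AC068631.1 lie on the opposite strand over 15.4% of the exonic bases of KNG1 and 8.83% of those of HRG.

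KLKB1 (prekallikrein) and F11 (factor XI), neighbours on chromosome 4 that encode closely related proteases, were both higher with knockdown in Huh7. KLKB1 was at 2.89 TPM with knockdown and 0.62 TPM in the control in Huh7, and at 0.13 TPM with knockdown and 0.08 TPM in the control in PLC/PRF/5. With a pseudocount of 5 or a minimum of 5 TPM, KLKB1 no longer counted as 2-fold in Huh7. F11 was at 9.04 TPM with knockdown and 4.05 TPM in the control in Huh7, just under 2-fold on the log2(TPM + 1) scale at 0.99, and at 2.03 TPM with knockdown and 1.49 TPM in the control in PLC/PRF/5. F12, the gene of factor XII, was at 47.3 TPM with knockdown and 19.5 TPM in the control in Huh7, and at 28.7 TPM with knockdown and 21 TPM in the control in PLC/PRF/5. F12 was thus 2.42-fold higher in Huh7 and 1.37-fold higher in PLC/PRF/5, and did not pass across lines in limma (adjusted p = 0.203). In Huh7, F11, F12, HRG and HABP2 were thus higher with knockdown, as 60.2% of all genes considered were, and KLKB1 entered only through the knockdown library. Exons of GRK6 on the opposite strand lie over 14.4% of the exonic bases of F12, and GRK6 differed by 0.25 in Huh7 and 0.01 in PLC/PRF/5 on the log2 scale.

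Among the anticoagulant genes, SERPINA5, SERPIND1 and SERPINC1 were far higher in Huh7 than in PLC/PRF/5. SERPINA5 encodes protein C inhibitor, and was at 472 TPM in the Huh7 knockdown library and 276 TPM in the Huh7 control, and at 0.80 TPM in the PLC/PRF/5 knockdown library and 2.92 TPM in the PLC/PRF/5 control. The gene was 1.71-fold higher with knockdown in Huh7 and 3.65-fold lower in PLC/PRF/5, where its level was low and the size was lost with a pseudocount of 5 or a minimum of 5 TPM. SERPIND1 (heparin cofactor II), a thrombin inhibitor, was at 347 TPM with knockdown and 176 TPM in the control in Huh7, and at 0.91 TPM with knockdown and 0.78 TPM in the control in PLC/PRF/5. SERPINC1, which encodes antithrombin, had the opposite direction in Huh7, with 46.9 TPM in the knockdown library and 79.9 TPM in the control, and stood at 0.14 TPM with knockdown and 0.35 TPM in the control in PLC/PRF/5. SERPIND1 and SERPINC1, both thrombin inhibitors that heparin accelerates, thus lay on opposite sides of their controls in Huh7.

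PROC encodes protein C, PROS1 its cofactor protein S and THBD the endothelial receptor thrombomodulin that lets thrombin activate it. PROC was at 47.8 TPM with knockdown and 29.7 TPM in the control in Huh7, and at 1.31 TPM with knockdown and 0.90 TPM in the control in PLC/PRF/5. PROS1 was at 274 TPM with knockdown and 205 TPM in the control in Huh7, and at 55.01 TPM with knockdown and 66.5 TPM in the control in PLC/PRF/5; 19.8% of its 31-base words are shared with the pseudogene PROS2P. Protein S transcript exceeded protein C transcript in every library, with PROC at 0.174 of PROS1 in the Huh7 knockdown library and at 0.0238 of it in the PLC/PRF/5 knockdown library. THBD was at 3.15 TPM with knockdown and 1.22 TPM in the control in PLC/PRF/5. SERPINA10, the inhibitor of factor Xa that works with protein Z, was at 10.6 TPM with knockdown and 8.58 TPM in the control in Huh7, and at 15.6 TPM with knockdown and 17.2 TPM in the control in PLC/PRF/5. PROZ, protein Z itself, was at 4.81 TPM with knockdown and 5.82 TPM in the control in Huh7, and at 0.05 TPM with knockdown and 0.42 TPM in the control in PLC/PRF/5.

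No plasmin system gene reached 2-fold on the log2(TPM + 1) scale in either line, although with a pseudocount of 0.1 CPB2 and PLAT did in PLC/PRF/5, a setting with which 480 of all 13057 genes were 2-fold higher, against 225 with a pseudocount of 1. PLG, which encodes plasminogen, was at 16.8 TPM with knockdown and 13.2 TPM in the control in Huh7, and shares 22.6% of its 31-base words with LPA and the plasminogen-like genes. SERPINF2 (alpha-2-antiplasmin), the direct inhibitor of plasmin, was at 299 TPM with knockdown and 251 TPM in the control in Huh7, and at 11.3 TPM with knockdown and 22.3 TPM in the control in PLC/PRF/5. Its difference in PLC/PRF/5 was -0.93 on the log2 scale, and -1.06 with median-ratio scaling. CPB2, the gene of a carboxypeptidase (TAFI) that slows fibrin breakdown, was at 220 TPM with knockdown and 155 TPM in the control in Huh7, and at 8.57 TPM with knockdown and 3.93 TPM in the control in PLC/PRF/5. CPB2 was higher with knockdown in both lines (log2 differences 0.50 and 0.96) and did not pass in limma (adjusted p = 0.177).

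Of the activators of plasminogen, PLAT was low in both lines and PLAU in PLC/PRF/5 alone. PLAT (tissue plasminogen activator) was between 0.35 and 1.04 TPM in all libraries. PLAU, the urokinase gene, was at 10.5 TPM with knockdown and 10.9 TPM in the control in Huh7, and at 0.24 TPM with knockdown and 0.10 TPM in the control in PLC/PRF/5. Its receptor gene PLAUR showed the reverse order of lines, at 2.61 TPM with knockdown and 2.67 TPM in the control in Huh7, and at 4.97 TPM with knockdown and 4.28 TPM in the control in PLC/PRF/5. A2M was at 1212 TPM with knockdown and 1589 TPM in the control in Huh7, and at 1031 TPM with knockdown and 1268 TPM in the control in PLC/PRF/5, lower in both lines by less than 2-fold. Exons of C10orf55, listed at 0.06 TPM or less, lie on the opposite strand over 31.1% of the exonic bases of PLAU.

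The lines themselves differed in most of these genes. In the cell line coefficient of the limma fit, Huh7 minus PLC/PRF/5, 21 of 34 genes passed an adjusted p of 0.05 as higher in Huh7, where 28.3% of all 13813 genes did, and 8 as higher in PLC/PRF/5, where 31.5% did. Among them, HRG, PROZ, SERPINC1, SERPIND1, PLG and PLAU were under 1 TPM in both PLC/PRF/5 libraries and entered the fit only through Huh7. F8 and THBD were under 1 TPM in both Huh7 libraries and entered only through PLC/PRF/5. For these genes the direction is not independent of the filter on level. The median over the 34 genes was 1.25 on the log2 scale, against -0.05 over all genes of the fit. SERPINA5, with 7.09 and a standard error of 0.45 (adjusted p = 0.00060), was higher in Huh7 in both arms. So was SERPIND1, with 7.07 and a standard error of 0.24 (adjusted p = 0.00020). Their mean differences over the arms were thus nearly the same on the log2(TPM + 1) scale. The arms were not alike for SERPINA5, whose line difference was larger with knockdown than in the control by 1.89. As ratios of mean TPM over the arms, Huh7 over PLC/PRF/5, the order was another, with 309.5 for SERPIND1, 259 for SERPINC1 and 201 for SERPINA5. The log2 differences of SERPINC1 (5.65), CPB2 (4.76), PROC (4.21) and SERPINF2 (4.02) were also above 4. PLG, at 3.99, and PLAU, at 3.32, followed. All 12 genes with a difference of at least 2 on the log2 scale were higher in Huh7.

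The 8 genes that passed as higher in PLC/PRF/5 were FGA, FGG, VKORC1, TFPI2, F8, SERPINA10, THBD and PLAUR. Their differences were smaller, from -0.52 for FGG to -1.60 for THBD. The fibrinogen cluster was split: FGB passed as higher in Huh7 with 1.91 and a standard error of 0.44 (adjusted p = 0.0178), and its neighbour FGA as higher in PLC/PRF/5 with -1.09 and a standard error of 0.12 (adjusted p = 0.0023). KNG1, F12, F5, F3 and TFPI did not pass, with differences from -0.14 to 0.86. The spread behind these p-values is that between the knockdown and control arms, moderated with variance borrowed from other genes, and not that between replicate cultures. With a minimum of 5 TPM, F8, THBD and PLAUR left the 8 genes higher in PLC/PRF/5, and without a minimum FGG, SERPINA10 and PLAUR did not pass, nor did FGB on the Huh7 side.

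**Figure D4:**
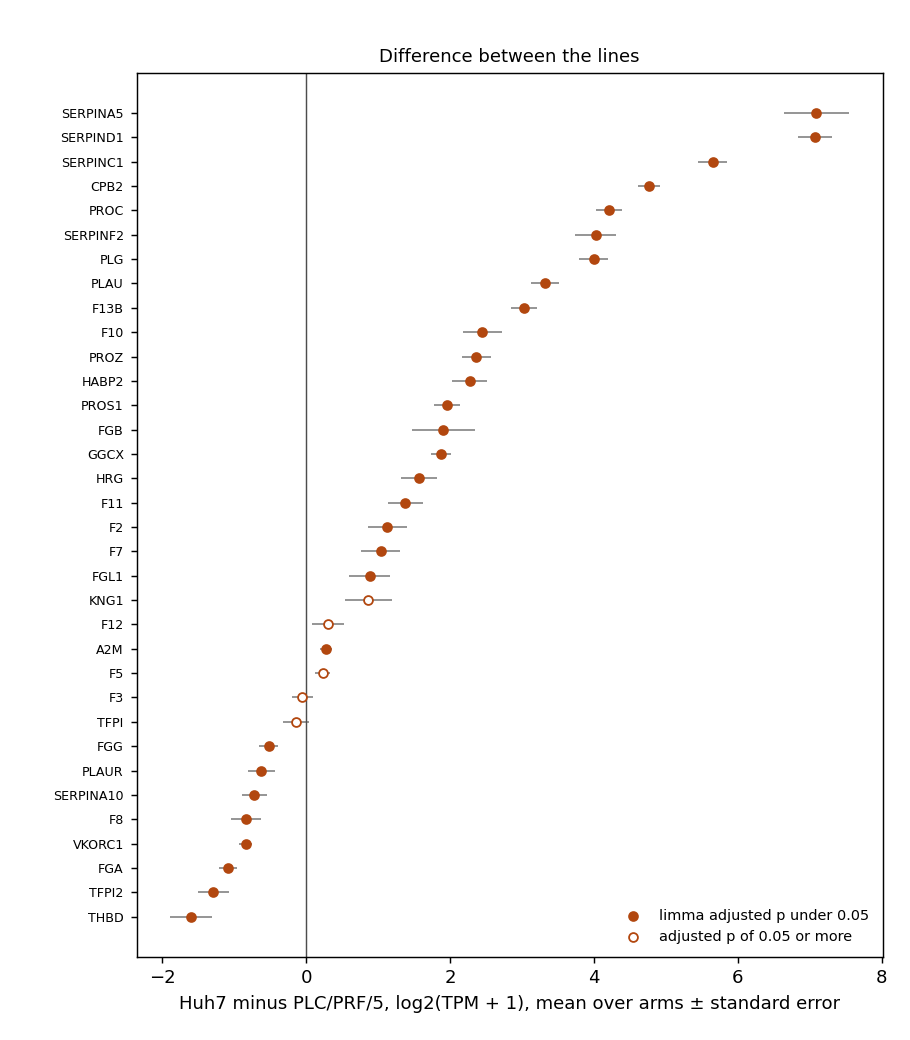
Huh7 minus PLC/PRF/5 for the 34 genes in the limma fit, as the mean difference in log2(TPM + 1) over the knockdown and control arms with its moderated standard error; filled points passed an adjusted p of 0.05. SERPINA5 and SERPIND1 are at the top with 7.09 and 7.07, and THBD at the bottom with -1.60.

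Other genes of the pathway were taken from a list of 50 that are not among the 37, covering regulators of plasminogen, protease and kinin receptors, vitamin K handling and secretion, plasma partners and hepatic serine proteases. In Huh7, 37 of them were considered, with 5 at least 2-fold higher with knockdown, where 3.1% of all genes were, and 1 lower, where 1.54% were. In PLC/PRF/5, 29 were considered, with 2 at least 2-fold higher, where 1.72% of all genes were, and 3 lower, where 1.11% were. Their median log2 difference was 0.19 in Huh7, against -0.07 in PLC/PRF/5. None of the 38 in the limma fit passed across lines at an adjusted p of 0.05, and at an unadjusted p under 0.05 in limma 10 were higher, where 12.7% of all genes were, and 4 lower, where 5.24% were. The considered genes under 2-fold ranged from -0.85 for CPN1 to 0.82 for F2RL2 in Huh7, and from -0.90 for APOH to 0.62 for PRRG2 in PLC/PRF/5. With a pseudocount of 5, F2RL1 in both lines, PRRG4 and XKR8 in Huh7, and SERPING1 and HPN in PLC/PRF/5 were under 2-fold.

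F2RL1, the gene of the protease-activated receptor 2 that the complex of tissue factor and factor VIIa can cleave, was higher with knockdown in both lines, like F3. It was at 15.9 TPM with knockdown and 5.67 TPM in the control in Huh7, and at 19.4 TPM with knockdown and 7.46 TPM in the control in PLC/PRF/5. The log2 differences were 1.34 and 1.27, with a mean of 1.31 and a standard error of 0.15 (adjusted p = 0.129 in limma). F2R, the thrombin receptor gene, was at 15.6 TPM with knockdown and 17.1 TPM in the control in Huh7, and at 6.97 TPM with knockdown and 4.29 TPM in the control in PLC/PRF/5.

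SERPINE2 encodes protease nexin-1, an inhibitor of thrombin and urokinase, and was at 25.1 TPM with knockdown and 21.6 TPM in the control in Huh7, and at 56.8 TPM with knockdown and 22.0 TPM in the control in PLC/PRF/5. It was thus at least 2-fold higher with knockdown in PLC/PRF/5 (log2 difference 1.33) and close to its control in Huh7 (0.21). SERPING1, the gene of C1 inhibitor, which blocks factor XIIa and kallikrein, was at 462 TPM with knockdown and 405 TPM in the control in Huh7, and at 1.60 TPM with knockdown and 5.78 TPM in the control in PLC/PRF/5. HPN, the gene of the membrane protease hepsin, was at 17.6 TPM with knockdown and 15.9 TPM in the control in Huh7, and at 11.1 TPM with knockdown and 23.7 TPM in the control in PLC/PRF/5.

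In Huh7, both genes of the C4b-binding protein, which binds protein S in plasma, were higher with knockdown. C4BPA was at 37.1 TPM with knockdown and 10.2 TPM in the control, and C4BPB at 41.5 TPM with knockdown and 8.10 TPM in the control, while neither reached 1 TPM in PLC/PRF/5. ST14, the gene of the membrane protease matriptase, was at 10.2 TPM with knockdown and 2.10 TPM in the control in Huh7 and at 0.22 TPM or less in PLC/PRF/5. PRRG4, a gene of a membrane protein with a Gla domain, was at 13.5 TPM with knockdown and 5.80 TPM in the control in Huh7, and at 1.30 TPM with knockdown and 0.71 TPM in the control in PLC/PRF/5. XKR8, a scramblase gene that acts in exposure of phosphatidylserine, was at 21.7 TPM with knockdown and 46.5 TPM in the control in Huh7, and at 32.3 TPM with knockdown and 30.4 TPM in the control in PLC/PRF/5. The classical non-hepatocyte partners VWF, F13A1 and SERPINB2 were listed at 0.16 TPM or less in every library.

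**Figure D5:**
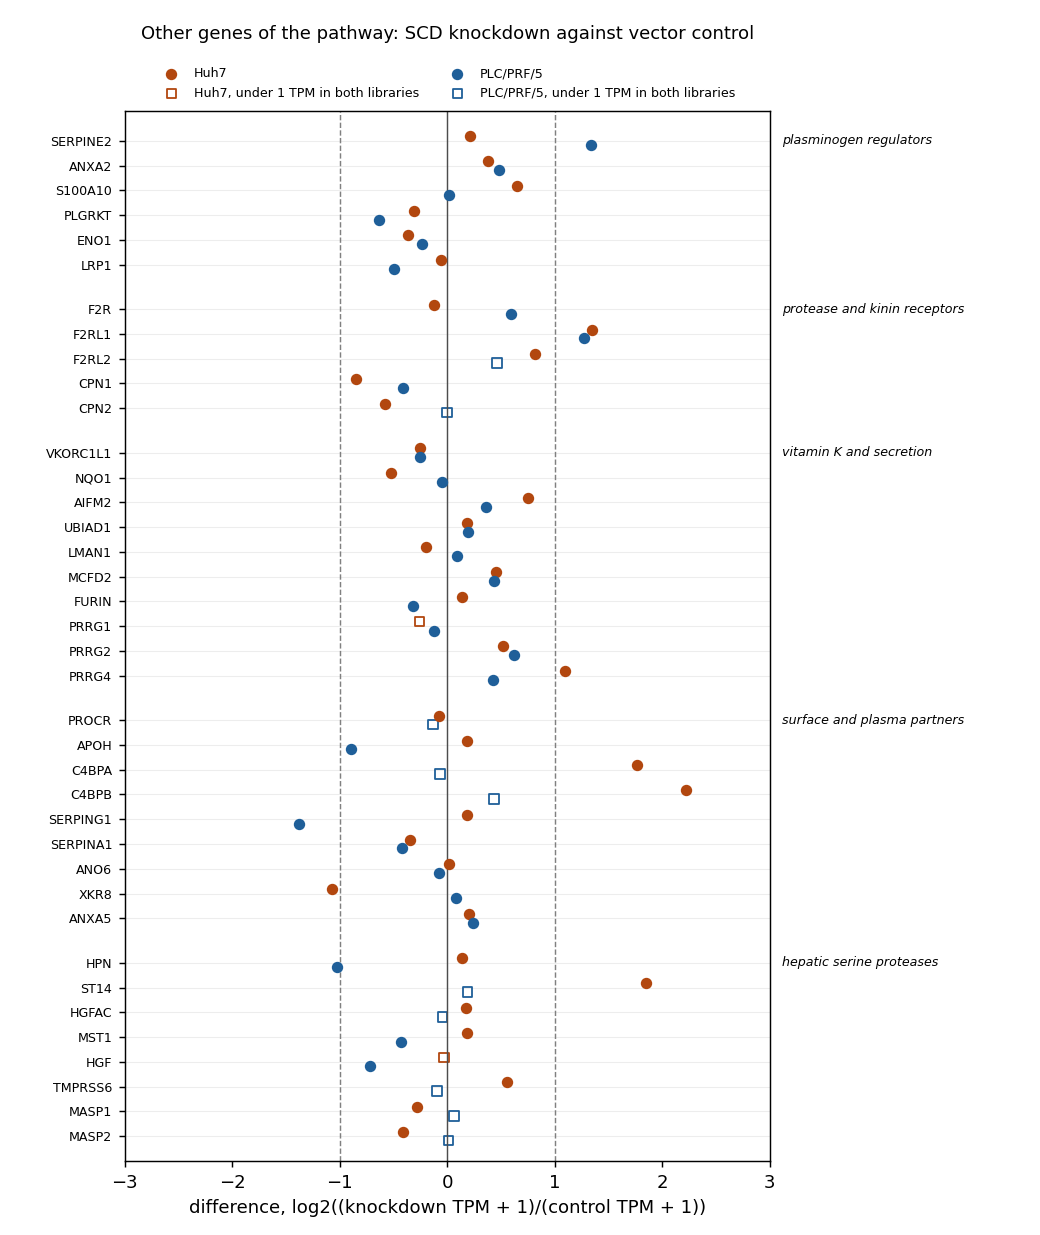
Knockdown against control, as log2((knockdown TPM + 1)/(control TPM + 1)), for 38 of the 50 other pathway genes, each with at least 1 TPM in at least 1 library; dashed lines mark 2-fold and open squares are genes under 1 TPM in both libraries of a pair. F2RL1 lies beyond the upper line in both lines, C4BPA, C4BPB, ST14 and PRRG4 in Huh7 alone, and SERPING1 and HPN beyond the lower line in PLC/PRF/5 alone, without a test of that difference.

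Transcription factors and interleukin-6 signalling genes known to act on liver promoters were mostly near their control level. HNF4A was at 192 TPM with knockdown and 160 TPM in the control in Huh7, and at 135 TPM with knockdown and 122 TPM in the control in PLC/PRF/5. The log2 differences of HNF4A were 0.27 in Huh7 and 0.14 in PLC/PRF/5. CEBPA was at 350 TPM with knockdown and 444 TPM in the control in Huh7, and at 48.4 TPM with knockdown and 98.3 TPM in the control in PLC/PRF/5. NR1H4, the gene of the bile acid receptor FXR, was at 99.01 TPM with knockdown and 133 TPM in the control in Huh7, and at 0.44 TPM with knockdown and 5.68 TPM in the control in PLC/PRF/5.

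CEBPA and NR1H4 were the 2 of 17 such genes at least 2-fold lower in PLC/PRF/5, where 1.11% of all genes were. CEBPD, an acute-phase factor gene, was the 1 at least 2-fold higher in Huh7, where 3.1% of all genes were, at 114 TPM with knockdown and 33.1 TPM in the control. CEBPD was at 47.3 TPM with knockdown and 47.8 TPM in the control in PLC/PRF/5. CEBPB, its relative, had log2 differences of -0.16 in Huh7 and 0.15 in PLC/PRF/5. None of the 17 passed across lines in limma at an adjusted p of 0.05, and at an unadjusted p under 0.05 4 were higher, where 12.7% of all genes were, and 3 lower, where 5.24% were. With a pseudocount of 5, CEBPA and NR1H4 were under 2-fold in PLC/PRF/5. Whether any of these factors bears on the coagulation genes was not tested.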

How the data were processed

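Total RNA of 4 samples was extracted with TRIzol and sequenced on standard Illumina libraries, per the labels' protocols. The authors deposited 1 gene table per library of TPM values with 2 decimals, indexed by symbol. Cutadapt, RSEM 1.2.21 and hg19 are named, per the submitters' processing notes. The aligner, the annotation and strandedness were not given in the sources used here. TPM holds no depth, so no counting interval was made, and a value of exactly 0 may be a failed estimate. RSEM shares reads among similar genes, so values of near-copies are uncertain. Groups came from the sample titles.

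Differences were computed with a pseudocount of 1 TPM. Limma 3.58.1 in R 4.3.3 was run on log2(TPM + 1) with cell line and arm as terms, a variance trend and 3.71 prior degrees of freedom, two-sided, with Benjamini-Hochberg adjustment over 13813 genes, and was tested on simulated data. Named genes were those at least 2-fold different in a line, the highest and lowest of each role, and F2R, F2RL1, HNF4A, CEBPA and CEBPB; values of the other coagulation and fibrinolysis genes are given so that all 37 are accounted for, and any further gene was named after its values were seen. Some genes of the wider lists are counted but not reported singly here. The 37 genes and the lists were chosen with earlier results of these data known. Shared 31-base words and exon overlaps came from GENCODE 29, and promoters and gene order from RefSeq on GRCh38.p14, another build than the authors'. Python 3.11.15 and matplotlib 3.10.9 were used. Alternatives were pseudocounts of 0.1 and 5, a minimum of 5 TPM or none, median-ratio scaling, and fits without the trend, the cell line term or the arm term.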

Additional observations from a re-analysis of the deposited data

Results flagged for a closer look

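Several genes differed in opposite directions in the lines, which flagged them. Each line has 1 library per arm, so each direction rests on 1 knockdown and 1 control library. The difference between the lines was not tested. The gaps, Huh7 minus PLC/PRF/5 in log2 difference, of SERPINA5 (1.89), FGB (1.87), SERPINF2 (1.18) and F10 (1.03) were above 1, each higher with knockdown in Huh7 but lower in PLC/PRF/5. SERPINA5 entered in PLC/PRF/5 only through the control, and with a pseudocount of 5 its difference there was -0.45, where that of FGB was -1.60. The same held for F7 (0.97), PROS1 (0.69), TFPI (0.67), SERPINA10 (0.40) and GGCX (0.37), and PLAUR had the reverse order (-0.20). With median-ratio scaling, however, TFPI was lower with knockdown in both lines, at -0.03 in Huh7 and -0.75 in PLC/PRF/5. Of the wider lists, SERPING1 (1.57) and HPN (1.16) shared the order of SERPINA5, as did CEBPD (1.77), whose difference in PLC/PRF/5 was -0.01, and XKR8 had the reverse (-1.15).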

How the results depend on the processing

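No paired analysis was possible because the labels give no replicate numbers, beyond the pairing of arms by cell line that the limma fit holds as a term. Without that term none of the coagulation and fibrinolysis genes passed, and leaving out a library leaves no residual degree of freedom. SCD kept its direction under every alternative, with log2 differences of -3.77 to -3.63 in Huh7 and, in PLC/PRF/5, of -2.78 to -2.61, and adjusted p from 0.0873 to 1 in limma. With a pseudocount of 5, the coagulation and fibrinolysis genes at least 2-fold higher in Huh7 numbered 3, without F3 and KLKB1. With the same setting the other pathway genes numbered 3 higher and 0 lower in Huh7, and 1 higher and 0 lower in PLC/PRF/5, and 0 of the liver factors were 2-fold lower in PLC/PRF/5. Over all 13485 genes considered in Huh7, that setting left 155 higher and 92 lower, against 418 and 207 with a pseudocount of 1. Over all 13057 in PLC/PRF/5 it left 68 higher and 55 lower, against 225 and 145. With a pseudocount of 0.1, 4 coagulation and fibrinolysis genes were at least 2-fold higher in PLC/PRF/5, with THBD, PLAT and CPB2 added to HABP2. The count over all genes was 480 with that setting and 225 with a pseudocount of 1. PLAT entered only through the knockdown library. None of the coagulation and fibrinolysis genes passed across lines under any alternative fit, with 1 to 9 higher and 1 to 7 lower at an unadjusted p under 0.05 in limma. In the main fit 12.7% of all genes were higher and 5.24% lower at that threshold. The shares of all genes were not taken for the alternative fits, so these ranges are not set against them. Those that passed as higher in Huh7 than in PLC/PRF/5 ranged from 16 to 21, and those higher in PLC/PRF/5 numbered 5 with a minimum of 5 TPM and 5 without one. Here too the shares of all genes, 28.3% and 31.5%, are known for the main fit alone. Without a minimum, FGG, SERPINA10 and PLAUR were lost, and FGB was among those lost on the Huh7 side. Median-ratio scaling turned the median of all genes to -0.015 in Huh7 and -0.035 in PLC/PRF/5. The causes were not tested, and TPM does not allow depth to be weighed.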
